A study of Nicotiana tabacum with 30 samples.

Results

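The genes described here are 22 genes of tobacco (Nicotiana tabacum) that were at a lower level in the line M28 than in its parent K326 at every time of a drought series, while changing little with time in either genotype. They were chosen by the measured values themselves, out of 35519 gene IDs, of which 19599 averaged 1 FPKM or more (FPKM counts fragments per gene length and per sequencing depth). A gene was included where the mean of log2(FPKM + 1) in M28 was lower than in K326 by 1 or more at each of 0, 1, 2, 4 and 8 h, and where every change from 0 h in both genotypes was under 1 in size. For abundant genes a difference of -1 on this scale is close to a 2-fold lower level, and for rare genes it stands for a larger drop. Because these contrasts made the list, the differences between the genotypes and the changes with time are given as descriptions, without tests.

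M28 is an ethyl methanesulfonate (EMS) mutant derived from the cultivar K326 and is described by the submitters as more resistant to drought. The groups were M28 leaves at 0, 1, 2, 4 and 8 h, and K326 leaves at 0, 1, 2, 4 and 8 h, with 3 libraries in each, so that each genotype had 15 libraries. The protocol lists a natural drought and one simulated by mannitol at 200 mM, without saying in the labels which of them a library had. Several seedlings stood in each pot, M28 is a single line, and no library of unstressed leaves later than 0 h was used here, so time under drought cannot be told apart from time of day. The tissue label and the extraction protocol give leaf, while the source field of the labels speaks of seeds. The tissue could not be checked by marker genes, since 0 of the 35519 IDs were found in the RefSeq gene table of the assembly ASM71507v2 and the deposited table pairs no ID with a name.

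EMS alkylates guanine and leaves mostly single-base substitutions scattered over the genome. Cultivated tobacco is an allotetraploid, with gene copies from both of its ancestral genomes, so many genes have a close relative whose reads can be hard to tell apart. A gene whose level differs between a mutant and its parent both before and during a stress shows a standing difference between the lines, separate from the response to the stress. No gene here has a known function from the files, and the genes are given by ID, in which the first number names a scaffold of the genome assembly and the number after the g names the gene on it.

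The condition on the difference did most of the selecting. A difference of -1 or lower was found for 1.73% of the 19599 genes at 0 h and for 1.16% at 1 h. The shares were 1.42% at 2 h, 1.57% at 4 h, and 1.23% for the last time, 8 h. At all 5 times together it was found for 74 genes (0.378%). The condition on time was met by 77.9% of all genes and by 22 of these 74, so 52 genes were lower in M28 at every time and also changed by 1 or more from 0 h in at least 1 group. The mirrored rule, with M28 higher by 1 or more at every time, gave 70 genes. The deposited values place the median of all genes higher in M28 by 0.16 over the 5 times. After median-of-ratios scaling, which moves that median to about 0, the rule gave 34 lower and 48 higher genes.

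Genes near the limits were close to one another in value. Nitab4.5_0000055g0020 was just inside, with a difference of -1.02 at 0 h, and so was Nitab4.5_0001601g0050, with -1.06 at 8 h. Nitab4.5_0001079g0100 was just outside, with -0.998 at 8 h, and Nitab4.5_0001696g0140 had -0.97 at 2 h. On the time limit, Nitab4.5_0000037g0280 and Nitab4.5_0001896g0050 were inside with a largest change of 0.95, in K326 at 4 h and 2 h. Nitab4.5_0001540g0050 and Nitab4.5_0000527g0200 were outside, with changes of 1.01 in K326 at 4 h and 1.08 in K326 at 8 h.

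Replicates were similar, with Pearson correlations of log2 values between 0.969 and 0.989. FPKM totals per library ran from 753424 to 801680 in M28 and from 801492 to 855427 in K326. The depth in reads is not given. Relative depths were estimated from steps between low values, and 340 of 435 library pairs shared one set of them. The estimates placed 29 libraries within 0.903 to 1.27. Replicate 3 of M28 at 8 h was placed at 0.243, or at 0.487 if its smallest step is a pair of reads. That library listed 246 of the 19599 genes at 0, against 31 to 100 in the others. Nothing ties the libraries to separate plants beyond the pots.

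The level in M28 relative to K326 divided the 22 genes. In M28, 3 genes were listed at 0 in all 15 libraries, 8 stood at 0.159 to 12.7% of the K326 mean, and 11 stood at 26.3 to 40.3% of it. None lay between 15 and 25%, a range that held 22 of the 52 genes that were lower at every time but changed with time. These limits were not planned and lie in the gap between 12.7 and 26.3% of the same values. The division is therefore a description and no result. In 21 of the 22 genes every M28 library was below every K326 library, as was so for 0.434% of all 19599 genes. In 22 of 22 every M28 library was below every K326 library of the same time at all 5 times, as was so for 2.67% of all genes. The rule used these same values, so neither count is a result about the 22 genes. The exception over all libraries was Nitab4.5_0000712g0280. The median level of the 22 genes was 2.78 FPKM in M28 and 22.6 FPKM in K326, and that of all 19599 genes was 12.8 FPKM in M28 and 11.3 FPKM in K326.

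**Figure D1:**
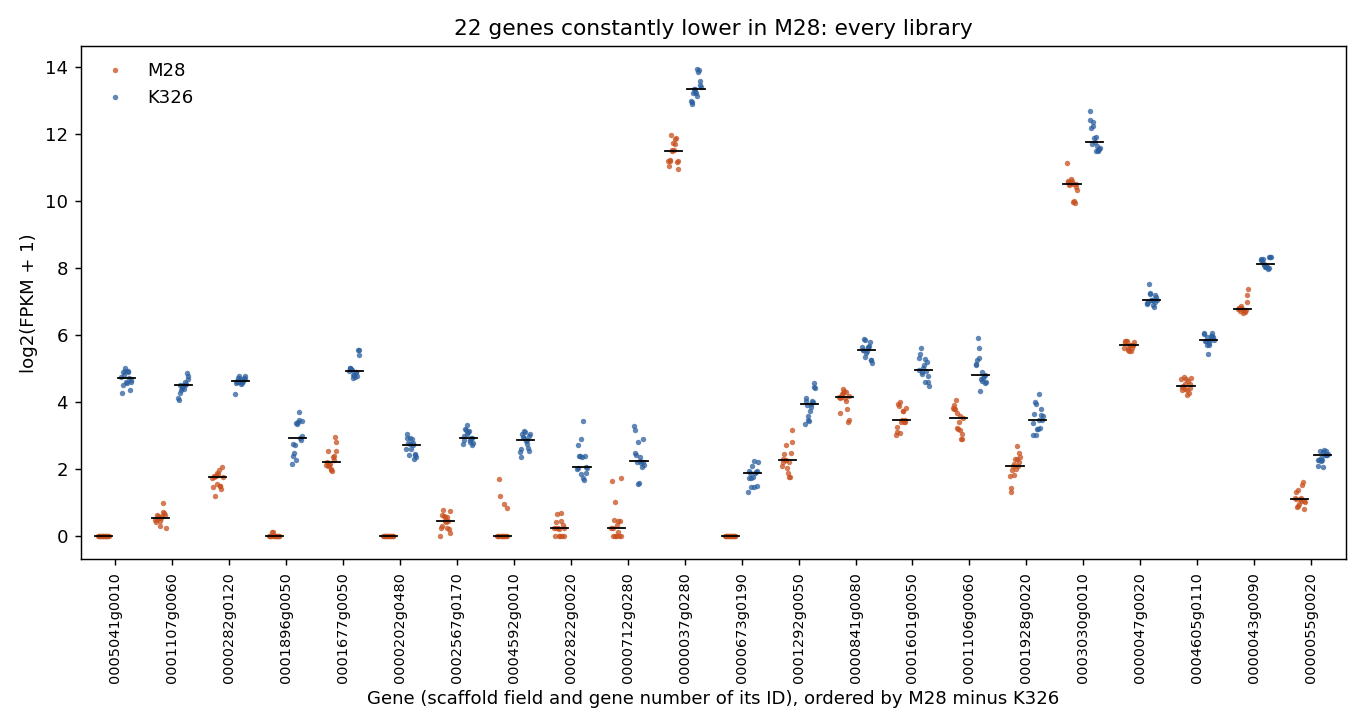
Level of each of the 22 genes in every library as log2(FPKM + 1), with M28 (orange, left) and K326 (blue, right) side by side and a bar at the median of 15 libraries. Genes run from the most negative difference to the least. Only Nitab4.5_0000712g0280 has M28 libraries (2.35 and 2.11 FPKM) above K326 libraries (1.93 and 1.98 FPKM).

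The 3 genes listed at 0 in M28 were expressed in every K326 library. Nitab4.5_0005041g0010 was listed at 0 in 15 of 15 M28 libraries, and in K326 it had 25.8, 18.4 and 21.9 FPKM at 0 h, 28.7, 27.0 and 31.6 at 1 h, 29.7, 23.5 and 22.6 at 2 h, 29.1, 29.4 and 25.5 at 4 h, and at last 19.5, 24.1 and 23.4 FPKM for 8 h. Its K326 level thus kept within 18.4 and 31.6 FPKM over the whole series. Nitab4.5_0000202g0480 was likewise listed at 0 in every M28 library, and ran from 3.93 to 7.26 FPKM in K326, with a median of 5.54 FPKM. Nitab4.5_0000673g0190, also at 0 throughout M28, was rarer in K326, with a lowest value of 1.48, a median of 2.71 and a highest value of 3.74 FPKM.

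Such a pattern was rare in the table. Only 4 of the 19599 genes were at 0 in all 15 M28 libraries and above 0 in all 15 K326 libraries, and 3 genes showed the reverse. How FPKM was computed is not given, and what an exact 0 stands for was not tested. Of 6526 genes whose median exceeded 20 FPKM, 5 were at 0 in at least 1 library. No fold is given for these 3 genes, since nothing in the table bounds the level below a 0. Together with 6 others, they had an M28 mean under 1 FPKM and so passed the filter on low values only through their level in K326. The remaining 13 genes had an M28 mean of at least 1 FPKM.

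Among the 8 genes with an M28 mean above 0 but at most 15% of the K326 mean, the largest difference belonged to Nitab4.5_0001107g0060. It had 0.401, 0.349 and 0.546 FPKM in M28 at 0 h, against 16.3, 15.6 and 18.2 FPKM in K326 at 0 h. At 8 h it had 0.604, 0.537 and 0.194 FPKM in M28, against 28.1, 24.8 and 26.6 FPKM in K326. The M28 libraries stayed under 1 FPKM at all times, while the K326 mean at 8 h was the highest of its series, and the mean over all libraries was 44.7-fold lower in M28 (0.479 ± 0.182 FPKM in M28 and 21.4 ± 3.44 FPKM in K326, SD, n = 15 each).

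Nitab4.5_0000282g0120 was the steadiest of this group in K326. Its lowest, median and highest values were 1.28, 2.37 and 3.21 FPKM in M28, against 18.1, 23.8 and 26.7 FPKM in K326. The mean was 10.6-fold lower in M28, and the coefficient of variation over the 15 K326 libraries was 8.79%, the smallest of the 22 genes. Nitab4.5_0001677g0050 had 2.86, 3.63 and 6.71 FPKM as lowest, median and highest values in M28, against 25.3, 29.2 and 46.2 FPKM in K326. In both genotypes its 3 libraries at 8 h were among its highest, with 6.71, 4.84 and 5.96 FPKM in M28 and 46.2, 41.4 and 45.9 FPKM in K326.

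The other 5 genes of this group were listed at 0 in some M28 libraries. Nitab4.5_0001896g0050 was above 0 in 2 of 15 M28 libraries, both at 1 h, with 0.0893 and 0.0810 FPKM, against 3.40 to 12.1 FPKM in K326. Nitab4.5_0004592g0010 was above 0 in 4 M28 libraries, with 2.28 FPKM at 0 h, 1.31 FPKM at 1 h, 0.927 FPKM at 4 h and 0.790 FPKM at 8 h, against 4.11 to 7.80 FPKM in K326. Its M28 values were therefore either 0 or well above it, and its mean hides that split.

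Nitab4.5_0002567g0170 was at 0 in 1 M28 library and otherwise between 0.0757 and 0.724 FPKM, against 5.56 to 8.89 FPKM in K326. For Nitab4.5_0002822g0020, 5 M28 libraries were at 0 and the highest had 0.617 FPKM, against 2.22 to 9.76 FPKM in K326. Nitab4.5_0000712g0280 was the least even, with 5 M28 libraries at 0, a median of 0.185 and a highest value of 2.35 FPKM in M28, against a lowest value of 1.93, a median of 3.76 and a highest value of 8.67 FPKM in K326. Its highest M28 value came from replicate 3 at 8 h, the library with the lowest estimated depth. The overlap did not rest on that library alone. Replicate 2 of M28 at 0 h, at a relative depth of 0.931, had 2.11 FPKM, also above the lowest K326 value. With a pseudocount of 0.1 FPKM none of these 5 genes met the rule, nor did Nitab4.5_0001928g0020. Their differences were then further from 0 (-3.73 over all times for Nitab4.5_0000712g0280, -1.70 for Nitab4.5_0001928g0020), and the largest change from 0 h passed 1, with 1.09 to 1.73 among the 6 genes.

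The most abundant of the 22 genes belonged to the group at 26 to 40% of K326. Nitab4.5_0000037g0280 ranked 4 among the 19599 genes by its K326 mean. It had 2328, 2109 and 2356 FPKM in M28 at 0 h, against 8218, 7904 and 7699.9 FPKM in K326 at 0 h. At 4 h it had 3672, 3368 and 3788 FPKM in M28, against 15702, 14819.6 and 15547.5 FPKM in K326. At 8 h it had 2319, 1993 and 2368 FPKM in M28, against 12299, 11325 and 10912 FPKM in K326. The highest M28 library of the whole series, at 4021 FPKM, was below the lowest K326 library, and the difference was widest at 8 h (-2.37) and narrowest at 2 h (-1.63).

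Nitab4.5_0003030g0010, at rank 14, had 2237, 1534 and 1565 FPKM in M28 at 0 h, against 6557, 5507 and 4677 FPKM in K326 at 0 h. At 8 h it had 1359, 1474 and 1302 FPKM in M28, against 2910, 3003 and 3056 FPKM in K326. The group mean at 8 h was 1378 ± 87.5 FPKM in M28 and 2990 ± 74.1 FPKM in K326 (SD, n = 3 each), and its difference was the widest at 0 h (-1.66) and the narrowest at 8 h (-1.12). These 2 most abundant genes held a median of 0.563% of the FPKM total in M28 libraries and 1.74% in K326 libraries. All 22 genes held 0.487 to 0.72% in M28 and 1.58 to 2.31% in K326, so the 2 genes made up most of that share in both genotypes.

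A pair of moderately abundant genes was among the most even of the 22. Nitab4.5_0000043g0090 had a lowest value of 100.9, a median of 109.5 and a highest value of 164 FPKM in M28, against 252, 279 and 325 FPKM in K326. Its highest M28 values were the 3 libraries at 8 h (126, 146 and 164 FPKM), and the K326 libraries at 8 h were also its highest (321, 325 and 319 FPKM). Nitab4.5_0000047g0020 had 45.1, 51.0 and 55.8 FPKM as lowest, median and highest values in M28, against 114, 131 and 184 FPKM in K326. The K326 libraries at 1 h (184, 153 and 148 FPKM) stood above all others of this gene, with no such step in M28 (55.1, 55.7 and 47.98 FPKM).

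The other 7 genes at 26 to 40% of K326 had K326 means between 4.18 and 57.5 FPKM. Nitab4.5_0004605g0110 averaged 21.9 ± 2.64 FPKM in M28 and 57.5 ± 6.53 FPKM in K326 (SD, n = 15 each). Nitab4.5_0000841g0080 averaged 15.9 ± 3.30 FPKM in M28 and 46.4 ± 7.005 FPKM in K326. The M28 means of these genes were 38.0 and 34.2% of the K326 means.

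Nitab4.5_0001106g0060 averaged 10.4 ± 2.93 FPKM in M28 and 31.5 ± 10.9 FPKM in K326, and its K326 libraries at 1 h, with 59.6, 38.97 and 47.8 FPKM, were the highest. Nitab4.5_0001292g0050 averaged 4.09 ± 1.496 FPKM in M28 and 14.7 ± 4.13 FPKM in K326, and its group mean was highest at 8 h in both genotypes. Nitab4.5_0001928g0020 averaged 3.31 ± 1.04 FPKM in M28 and 10.8 ± 3.17 FPKM in K326. The lowest of the group was Nitab4.5_0000055g0020, with 1.22 ± 0.376 FPKM in M28 and 4.18 ± 0.553 FPKM in K326.

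The difference between the genotypes varied with time to an unequal degree. Its range over the 5 times was 0.23 at the smallest (Nitab4.5_0002567g0170), 0.47 at the median and 1.06 at the widest (Nitab4.5_0001601g0050). The smallest range depends on the pseudocount of 1 FPKM, since Nitab4.5_0002567g0170 averaged 0.133 FPKM at 0 h and 0.595 FPKM at 1 h in M28. With a pseudocount of 0.1 FPKM its largest change from 0 h was 1.73, in M28 at 1 h. Nitab4.5_0001601g0050 had 7.05, 8.49 and 7.64 FPKM in M28 at 0 h, against 29.98, 38.9 and 42.7 FPKM in K326 at 0 h. At 1 h it had 14.3, 13.9 and 15.1 FPKM in M28, against 48.4, 27.7 and 28.6 FPKM in K326. The M28 libraries at 1 h were thus all above those at 0 h, and the K326 libraries of these times overlapped. At 8 h it had 9.52, 10.2 and 13.1 FPKM in M28, against 26.7, 23.1 and 21.4 FPKM in K326, which left a difference of -1.06, near the limit.

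The rule asked for a difference at every time, and its size at each is given as a description. The median difference of the 22 genes was -1.87 at 0 h, -1.71 at 1 h and -1.70 at 2 h, then -2.05 at 4 h and -1.74 for 8 h, while the median over all genes lay between 0.10 and 0.22. The difference was widest at 0 h for 7 genes, at 1 h for 5, at 2 h for 3, at 4 h for 4, and for 3 genes at 8 h. It was narrowest at 0 h for 7 genes, at 1 h for 4, at 2 h for 4, at 4 h for 2, and for 5 genes at 8 h. The largest change from 0 h in either genotype ran from 0.26 to 0.95 with a median of 0.51, and 6 genes reached 0.8 or more. At 8 h the median change of the 22 genes from 0 h was 0.00 in M28 and 0.13 in K326, with 11 of 22 above 0 in M28 and 13 of 22 in K326. Over all genes it was 0.12 in M28 and 0.21 in K326. The 3 genes listed at 0 in every M28 library, and Nitab4.5_0001896g0050, at 0 in M28 at 0 h and 8 h, had an M28 change of exactly 0. They count as not above 0 and draw the M28 median toward 0.

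**Figure D2:**
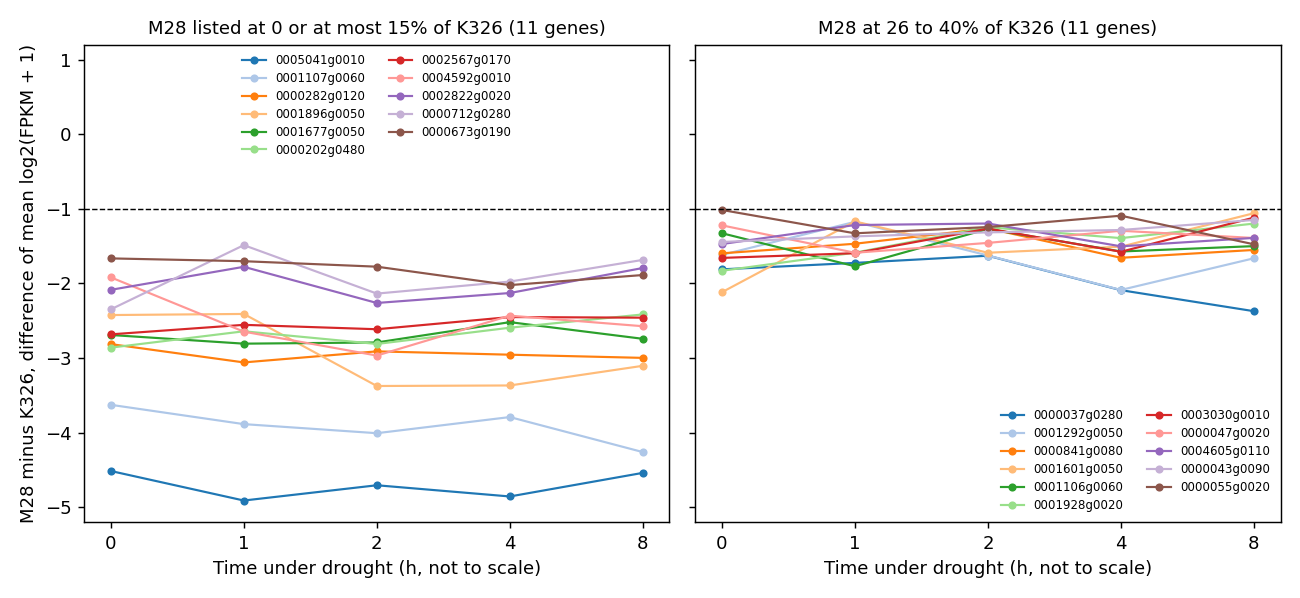
M28 minus K326, as the difference of the mean log2(FPKM + 1) of 3 libraries per genotype, at each of 5 times, for the 11 genes listed at 0 or at most 15% of K326 in M28 (left) and the 11 genes at 26 to 40% (right). All points lie under the dashed line of -1 that the rule set, and the lines of the right panel stay between -1.02 and -2.37.

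**Figure D3:**
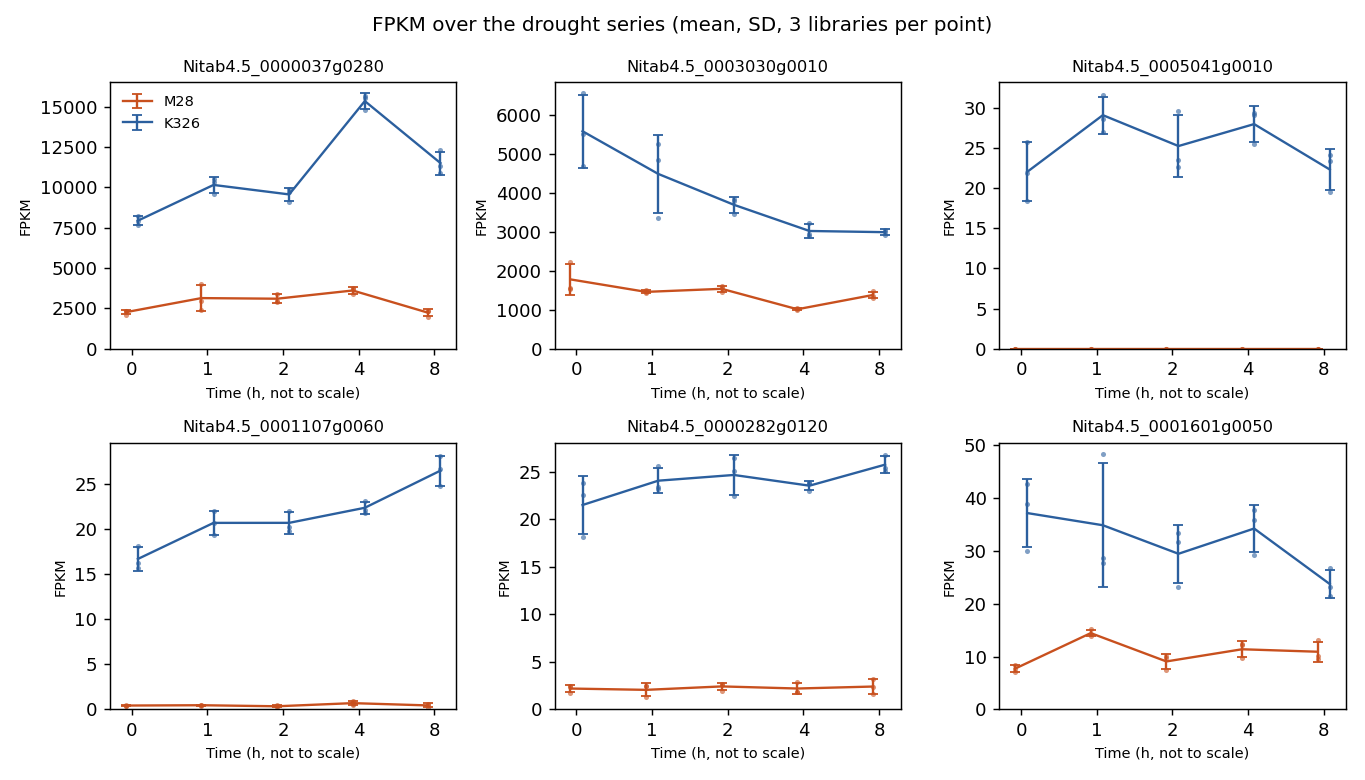
FPKM of 6 of the genes over the series, with each library as a point and the mean and SD of 3 libraries as a line with bars, M28 in orange and K326 in blue. Nitab4.5_0005041g0010 lies at 0 in M28 at every time, and Nitab4.5_0000037g0280 has an M28 mean of 3609 FPKM and a K326 mean of 15356 FPKM at 4 h.

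Position was not used to choose the genes. The 22 genes carried 22 different scaffold numbers, so that 0 of them shared a scaffold with another of the 22, and 0 shared one with a gene of the mirrored list. Of the 70 mirrored genes, 6 shared a scaffold with another of that list. All 19599 genes carried 2996 scaffold numbers, and 97.7% of them shared one with another of the 19599. That share does not apply to a list as short as 22 genes, so the 0 is a count and no result. Each of the 22 scaffolds held other genes of the table, of which 197 averaged 1 FPKM or more, and these were tested for a difference between the genotypes over all times (limma, adjusted p below 0.05 over 19599 genes). In M28, 43 of the 197 (21.8%) were lower, against 14% of all genes, and 92 (46.7%) were higher, against 54.2% of all genes.

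The excess of lower genes came from the scaffolds of Nitab4.5_0000037g0280 and Nitab4.5_0003030g0010, the most abundant genes of the list, which were singled out after the values were seen. On scaffold 0000037, 12 of 20 other genes were lower in M28 and 4 were higher. Beside Nitab4.5_0003030g0010, 10 of 11 were lower and 1 was higher. Without these scaffolds, 21 of 166 genes (12.7%) were lower, under the 14% of all genes. Among 621 scaffolds with at least 10 such genes, 4 had 60% or more of them lower in M28, and 1 had 90% or more. The 621 include the scaffolds of Nitab4.5_0000037g0280 and Nitab4.5_0003030g0010. Both are among the 4, and the 1 is the scaffold of Nitab4.5_0003030g0010. The limits of 60 and 90% lie at or just under the shares of these scaffolds, so the 4 and the 1 are no independent background. The counts after median-of-ratios scaling were 15 of 20 and 10 of 11, and 44 of 166 (26.5%) on the other scaffolds, beside 28.96% of all genes.

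Scaffold 0000037 held a run of lower genes at its high gene numbers. Beside Nitab4.5_0000037g0280, the genes numbered 0310, 0340, 0350, 0360 and 0370 were lower by more than 1 over all times, a size reached by 1.05% of all genes. Nitab4.5_0000037g0350 was as abundant as the listed gene, with a lowest value of 1643, a median of 2789 and a highest value of 4130 FPKM in M28, against 5334, 8020 and 14979 FPKM in K326 (difference -1.71, SE 0.04, limma adjusted p = 6.32e-22). No M28 library overlapped a K326 library. It missed the list through its time course, since at 8 h it averaged 3855 ± 239.8 FPKM in M28 and 14306 ± 635 FPKM in K326, and at 0 h it averaged 1763 ± 108 FPKM in M28 and 5363 ± 39.5 FPKM in K326 (SD, n = 3 each).

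Its neighbours by number took the opposite course over time. Nitab4.5_0000037g0340 averaged 173.6 ± 18.6 FPKM in M28 and 1046 ± 140.5 FPKM in K326 at 0 h, and 3.91 ± 2.49 FPKM in M28 and 29.4 ± 4.10 FPKM in K326 at 8 h (SD, n = 3 each). Its difference over all times was -2.59 (SE 0.11, limma adjusted p = 2.68e-16). Nitab4.5_0000037g0360 had a difference of -2.98 (SE 0.17, limma adjusted p = 8.64e-14), with 79.6 ± 1.55 FPKM in M28 and 813 ± 95.0 FPKM in K326 at 0 h. Thus a scaffold with 4 genes lower in M28 by 1 or more at every time gave 1 gene to the list. Of the 4, only the listed gene kept its level within 2-fold of 0 h. Next to the listed gene, Nitab4.5_0000037g0290 did not pass the test (difference 0.03, SE 0.12, limma adjusted p = 0.852). Further off by number, Nitab4.5_0000037g0210 was higher in M28 (1.38, SE 0.09, limma adjusted p = 2.58e-12). Between it and the listed gene, the tested genes numbered 0220 and 0240 were lower in M28 (-0.43 and -0.66). Whether genes of this run share reads as near-identical copies was not tested.

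Of 26 tested genes whose number was the next one up or down from any of the 22, 4 (15.4%) were lower and 12 (46.2%) higher in M28 by the same test, beside 14 and 54.2% of all genes. Their differences lay between -1.40 and 2.18. For Nitab4.5_0005041g0010, at 0 throughout M28, 0 of 4 other genes on the scaffold were lower. Beside Nitab4.5_0000202g0480 it was 0 of 24, and beside Nitab4.5_0000673g0190 it was 5 of 10. Over the scaffolds of the 11 genes listed at 0 or at most 15% of K326, 12 of 94 genes (12.8%) were lower, beside 14% of all genes. The shares among the 26 and the 94 genes are near those of all genes and show nothing particular to them.

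Some direct neighbours differed in the opposite direction. Next to Nitab4.5_0000841g0080, Nitab4.5_0000841g0070 was higher in M28, with a lowest value of 43.7, a median of 114 and a highest value of 184 FPKM in M28, against 9.34, 17.5 and 82.7 FPKM in K326 (difference 2.18, SE 0.11, limma adjusted p = 3.53e-15). The genotypes overlapped, and the K326 mean was highest at 1 h, with 57.1 ± 22.99 FPKM (SD, n = 3). Next to Nitab4.5_0000202g0480, listed at 0 in every M28 library, Nitab4.5_0000202g0470 had a lowest value of 16.6, a median of 29.6 and a highest value of 38.6 FPKM in M28, against 5.64, 11.4 and 16.9 FPKM in K326 (difference 1.29, SE 0.10, limma adjusted p = 1.82e-11).

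In the same direction as its listed neighbour was Nitab4.5_0000712g0270, beside Nitab4.5_0000712g0280. It was at 0 in 8 M28 libraries with a highest value of 1.36 FPKM, against a lowest value of 0.731 and a highest value of 3.05 FPKM in K326 (difference -1.40, SE 0.13, limma adjusted p = 1.17e-09). These neighbours were picked for differences of 1 or more in size, a size found in 13 of the 197 genes, 7 of them lower and 6 higher in M28.

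**Figure D4:**
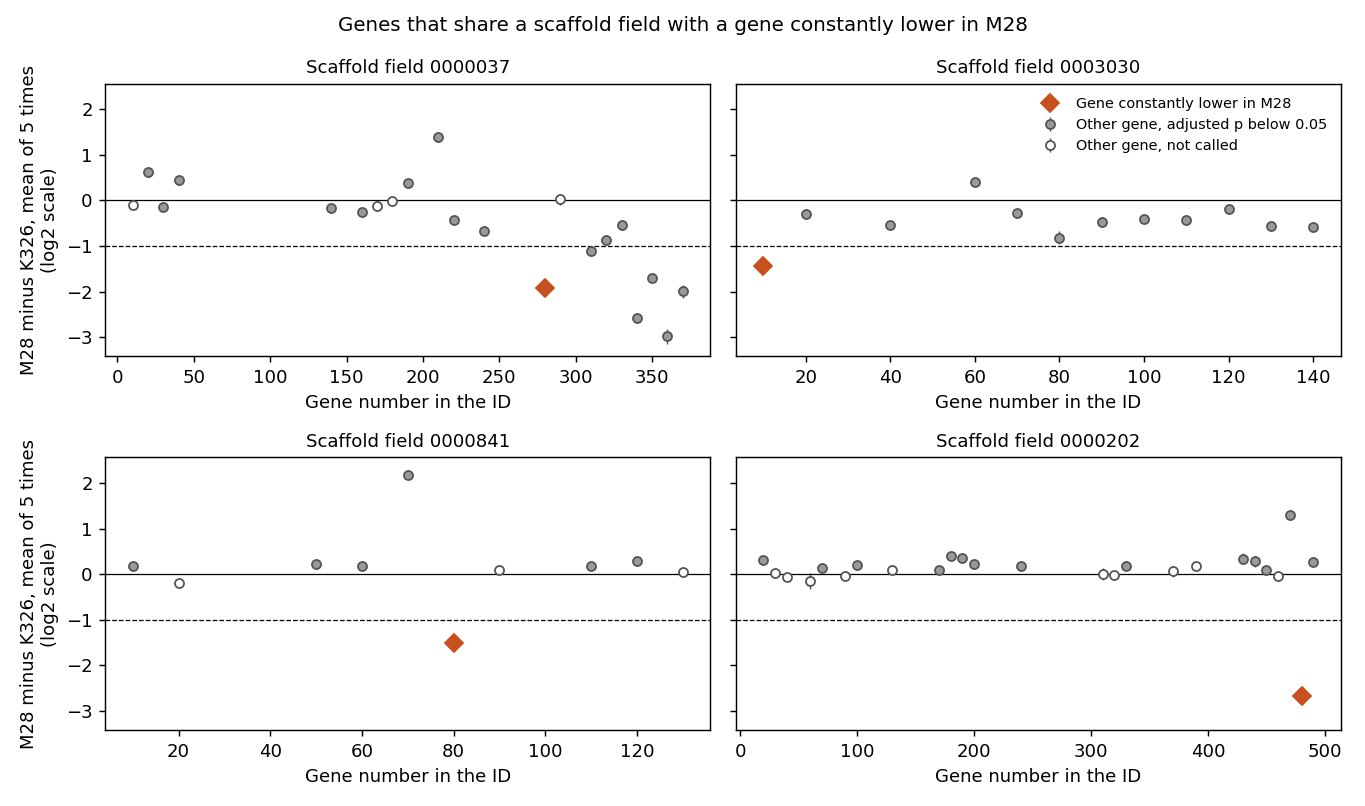
M28 minus K326 averaged over 5 times (log2 scale, bars are SE, mostly smaller than the points) for the tested genes of 4 scaffolds, ordered by the gene number in the ID; the gene of the list is an orange diamond. On scaffold 0000037 the low genes stand at high gene numbers down to -2.98, 10 of 11 other genes are lower beside Nitab4.5_0003030g0010, and the genes next to Nitab4.5_0000841g0080 and Nitab4.5_0000202g0480 are higher by 2.18 and 1.29.

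Compared with the 70 genes that were constantly higher in M28, the 22 had larger differences at the median, with -1.87 against 1.499 for the 70. The highest of the 70 reached 5.86. Of the 70, 2 were listed at 0 in all 15 K326 libraries and 63 were without overlap between the genotypes, against 3 and 21 of the 22. Both lists were chosen by the same values, the median of all genes was shifted toward M28, and the difference between the lists was not tested.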

How the data were processed

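The 30 RNA libraries form 10 groups of genotype and time, 3 in each, with groups and replicate numbers taken from the labels. The authors deposited 1 table of FPKM values, scaled to gene length and depth, with 1 column per library. The tools named in the submitters' processing notes are HISAT2, featureCounts, Trimmomatic and FastQC. Their versions, the build and how FPKM was computed are not given in the sources used here.

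Values were analysed as log2(FPKM + 1) without rescaling. The rule was applied to group means of 3 libraries. For genes sharing a scaffold number, all 19599 genes averaging 1 FPKM or more were fitted with limma 3.58.1 in R 4.3.3 (30 libraries, 10 groups, mean-variance trend). M28 minus K326 was averaged over the 5 times, with Benjamini-Hochberg adjustment over all genes. The fit was tested on simulated data. P-values measure the spread between these libraries, which may be partly technical.

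The genes, the rule and the tests were chosen with earlier results of these data known. By rule, the text names genes with the highest K326 level, at 0 in M28, with the largest, steadiest or most variable difference, or at the limits. The remaining ones, and neighbours with differences of 1 or more, were added after values were seen. Alternatives covered pseudocounts, filters, scaling, the limits of the rule, single libraries and a replicate term. No 2 libraries were identical.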

Additional observations from a re-analysis of the deposited data

How the results depend on the processing

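The list of 22 genes held 20 to 25 genes when each of the 30 libraries was left out in turn, sharing at least 19 with it, and 17 genes were on it in all 30 cases. The others missed it in 5 cases (Nitab4.5_0000055g0020), 3 (Nitab4.5_0001601g0050 and Nitab4.5_0000712g0280), 2 (Nitab4.5_0001896g0050) or 1 (Nitab4.5_0003030g0010). With a pseudocount of 0.1 FPKM 16 of the 22 were kept among 21, and with 0.5 FPKM 20 among 23. The list held 14 genes with a filter of 5 FPKM, 34 after median-of-ratios scaling, 43 with a limit of -0.8 and 74 without the limit on time. Differences of single genes over all times were refitted under the pseudocount of 0.1 FPKM, median-of-ratios scaling and single left-out libraries, giving 704 values. None changed sign, but the rule had set each gene at -1 or lower at every time, so this is no test of them. Of the 18 values that moved by over 1 SD, 12 did so with the pseudocount of 0.1 FPKM. The number of listed genes sharing a scaffold was 2 with median-of-ratios scaling, 2 with quantile normalization, and 0 to 2 with single libraries left out.

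The share of other genes lower in M28 on the listed genes' scaffolds was 16.1% without a filter (11.3% of all genes under that setting), 30.95% with a filter of 5 FPKM (15.3% of all genes), 31.8% with median-of-ratios scaling (28.96% of all genes) and 34.8% with quantile normalization (25.5% of all genes), each on the scaffolds of its own list. It was 12.7% without the scaffolds of Nitab4.5_0000037g0280 and Nitab4.5_0003030g0010, an alternative chosen after seeing the data. Of all genes, 2739 were called lower in M28. Median-of-ratios scaling gave 5675 and quantile normalization 5007. Both centre the genes by construction. The replicate block gave 2750 and left the share at 21.8%. Of 15 same-numbered pairs of M28 and K326 libraries, 2 had deviations correlated over 0.1. However, 9 of 15 M28 libraries correlated best with their own number. These values do not settle whether the numbers pair the libraries, and the main fit left the numbers out. Depth in reads is unknown, so a 0 sets no limit on a level.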
